A study of Rattus norvegicus with 15 samples.

Results

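Acute phase proteins are plasma proteins whose production in the liver rises or falls when tissue is injured or infected. The 10 genes described here were taken by symbol (Lcn2, Lbp, A2m, Orm1, Hp, Hpx, Cp, Serpina3n, Crp and Apcs), and a row of the count table belonged to them where its gene column held that symbol. They were picked because Lcn2 was far higher and Crp lower in cirrhosis than in control livers, so the difference between these groups is given for them as a description: no p-value is printed for it, and counts of calls stand only beside the share of all genes called. Of the 10 genes, 9 had a row among the 32623 genes listed, and all 9 were among the 14417 genes that passed the filter on low counts. No row held the symbol Serpina3n.

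The livers came from male Wistar rats in 3 groups. Rats of the cirrhosis group inhaled CCl4, a hepatocyte toxin, for 12 weeks and drank water with 0.35 g/L phenobarbital, which induces the enzymes that activate CCl4. Rats of the cirrhosis & eplerenone group received the same and, from week 8 to week 12, eplerenone, a blocker of the mineralocorticoid receptor (MR), at 100 mg/kg per os in hazelnut spread. A CCl4-free interval of 7 to 10 days preceded tissue collection. Eplerenone too was given only until week 12, so "under eplerenone" below names the group and not dosing at the time of collection. Controls received no CCl4, phenobarbital or eplerenone, so CCl4 and phenobarbital cannot be told apart. The study sequenced animals that it had selected by how far induction of cirrhosis or treatment had succeeded, so the groups are not a random draw of treated rats. RNA of 4 control, 5 cirrhosis and 5 cirrhosis & eplerenone livers was analysed, with 16157491 to 21574767 counted reads per sample. Control replicate 1 was not analysed here. The study left out 1 control, which it did not name, because it differed from the other 4 by principal component analysis. The control ranges given here may therefore be narrower than those of all 5 controls. The rats' labels begin with 13 or 16 in the control group and with 15 or 20 in both CCl4-treated groups. What the prefix stands for is not stated, and against control it cannot be told apart from the treatment. All 10 hepatocyte marker genes were counted in every library, and their summed level ranged from 5994 to 18263 FPM (counts per 1000000 of normalised library size). Cirrhosis replicate 5 stood apart from its group on the first principal component of the 500 most variable genes (66.6% of their variance), at 13.03 against -47.7 to -38.0 for the other 4 cirrhosis livers and 44.3 to 50.6 for controls. The cirrhosis & eplerenone livers spread from -42.6 (replicate 3) to 26.8 (replicate 2). In bulk liver RNA, fewer cells of a type and less RNA per cell cannot be told apart.

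Hepatocytes produce most acute phase proteins under interleukin-6, whose signal runs through STAT3, and interleukin-1, whose signal runs through NF-kappaB. C/EBP transcription factors act at many of the promoters. In the rat, A2m and Orm1 are strongly inducible, whereas Crp, the leading acute phase protein of man, is made constitutively in quantity. The group also shows how mixed the functions are: Lcn2 captures bacterial siderophores, Lbp hands bacterial lipopolysaccharide to CD14, Hp and Hpx bind free haemoglobin and haem, and Crp and Apcs are pentraxins that mark microbes and debris.

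RefSeq promoter windows (assembly GRCr8, not the rn6 build on which the reads were counted) were found for 7 of the 10 genes and not for Hp, A2m or Lbp. Those of Lcn2 and Orm1, both higher in cirrhosis, and of Crp and Apcs, both lower, are shown because these pairs lay on opposite sides of control. Each line gives the 250 bases before the start of transcription, 5′ to 3′ on the gene's strand. Capitals mark matches on either strand to a kappaB-type motif (GGGNNNNNCC), a C/EBP-type motif (TTNNGNAA) or a STAT-type motif (TTCNNNGAA). Matches may overlap.
Lcn2, chr3:36081781-36082030, minus strand: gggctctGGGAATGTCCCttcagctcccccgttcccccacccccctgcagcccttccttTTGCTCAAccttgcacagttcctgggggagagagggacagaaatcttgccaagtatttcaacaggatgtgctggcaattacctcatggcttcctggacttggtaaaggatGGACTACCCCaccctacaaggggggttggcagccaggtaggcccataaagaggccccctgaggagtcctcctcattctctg
Orm1, chr5:81788259-81788508, plus strand: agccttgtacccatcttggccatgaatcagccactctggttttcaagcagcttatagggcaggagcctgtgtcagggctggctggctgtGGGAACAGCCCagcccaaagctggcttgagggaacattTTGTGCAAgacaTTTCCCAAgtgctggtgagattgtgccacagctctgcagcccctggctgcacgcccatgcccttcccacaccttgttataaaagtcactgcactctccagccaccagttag
Crp, chr13:87693812-87694061, plus strand: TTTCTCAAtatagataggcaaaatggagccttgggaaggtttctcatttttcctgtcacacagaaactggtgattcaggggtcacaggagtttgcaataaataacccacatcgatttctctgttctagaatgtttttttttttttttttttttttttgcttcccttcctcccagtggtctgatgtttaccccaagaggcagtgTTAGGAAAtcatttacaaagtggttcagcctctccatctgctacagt
Apcs, chr13:87906509-87906758, minus strand: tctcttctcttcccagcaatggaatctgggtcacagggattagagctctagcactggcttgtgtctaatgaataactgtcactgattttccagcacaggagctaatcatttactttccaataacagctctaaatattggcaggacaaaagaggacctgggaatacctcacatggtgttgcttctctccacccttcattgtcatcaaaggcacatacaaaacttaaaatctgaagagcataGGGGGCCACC

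The Lcn2 window held kappaB-type matches beginning 243, 242 and 81 bases before the start, the first 2 overlapping on opposite strands, and a C/EBP-type match 191 bases before it. The Orm1 window was alike in having an overlapping pair of kappaB-type matches, 161 and 160 bases before the start, with C/EBP-type matches at 123 and 111. The Crp window had C/EBP-type matches at 250 and 47 bases before the start and no kappaB-type letters, and the Apcs window had 1 kappaB-type match, 10 bases before the start. None of these 4 windows held the STAT-type letters, which the Serpina3n window held 123 bases before its start. Such matches are common: of 33469 rat windows of this length, 42.3% held the kappaB-type, 37.2% the C/EBP-type and 7.67% the STAT-type motif. A match describes the sequence and does not show that a factor binds there.

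Between cirrhosis and control, 5 of the 9 genes lay above every control in every cirrhosis liver (Lcn2, Lbp, A2m, Orm1 and Hp), 2 lay below every control (Crp and Apcs), and Cp and Hpx overlapped. The same separation was seen in 11.2% (higher) and 9.03% (lower) of all genes tested. By edgeR, 4 of the 9 genes passed an FDR (false discovery rate) of 0.05, Lcn2, Lbp and Orm1 higher and Apcs lower, against a background of 20.2% of all genes (13.4% higher and 6.71% lower), and by DESeq2 7 of 9 against 27.8%. Since the genes were picked on this difference, nothing is read from these counts. The median log2 fold change (log2FC) of the 9 genes was 0.64, and that of all genes was -0.01. Together the 9 genes took 2.71% ± 0.292 of the counted reads in control (SD, n = 4), 4.17% ± 0.672 in cirrhosis (n = 5) and 3.41% ± 0.519 under eplerenone (n = 5). Hp alone accounted for 1.12% to 1.40% of the reads of a control and for as much as 3.10% of those of a cirrhosis liver.

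**Figure D1:**
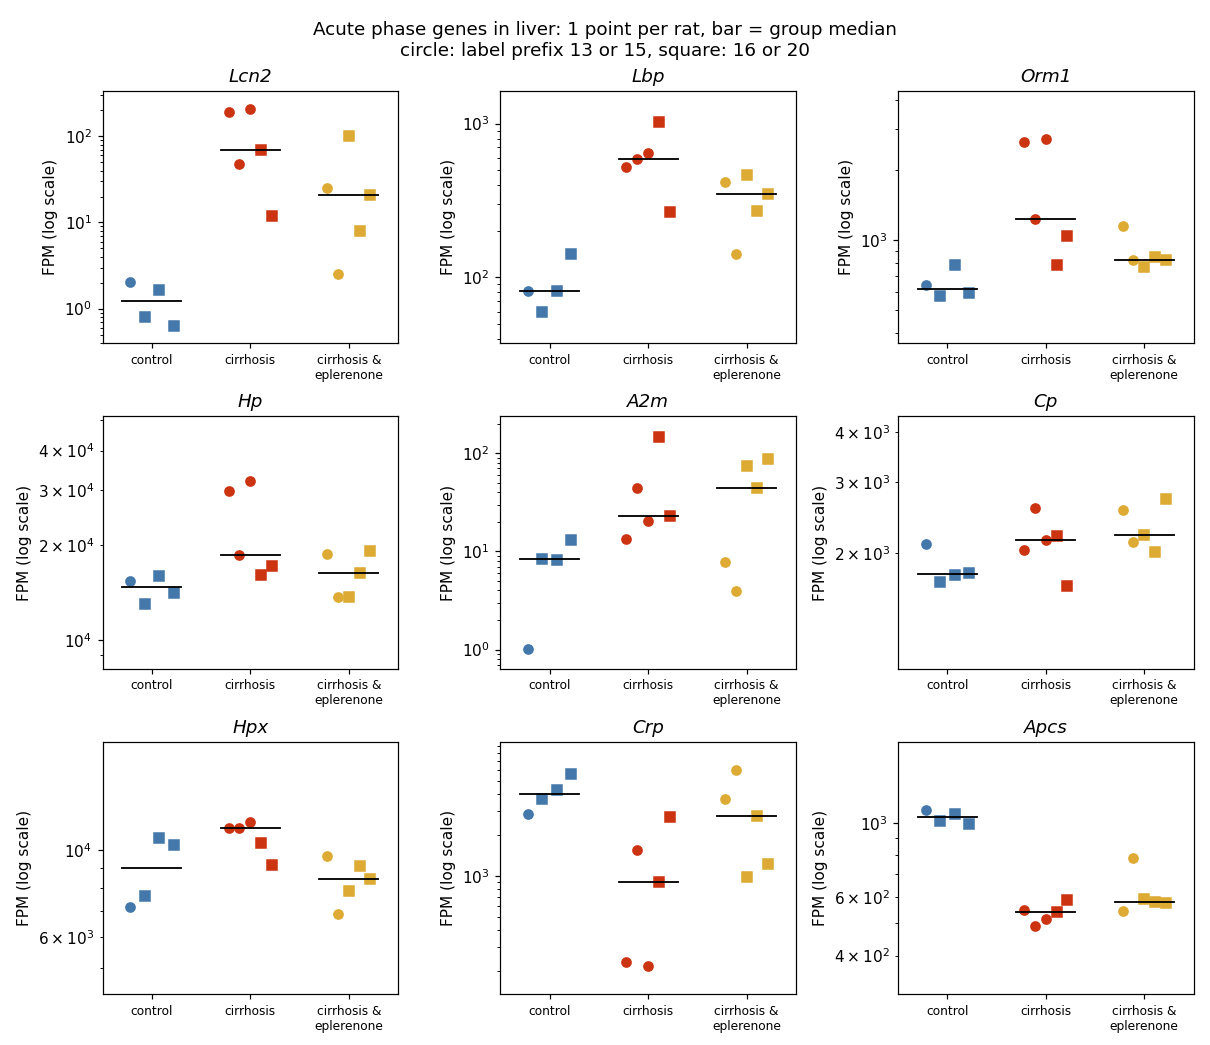
Level of each of the 9 acute phase genes in FPM (log axis), 1 point per rat, with control, cirrhosis and cirrhosis & eplerenone from left to right and a bar at the group median. Circles are rats with label prefix 13 or 15 and squares those with 16 or 20. Lcn2, Lbp, Orm1, Hp and A2m lie above all controls in every cirrhosis liver and Crp and Apcs below, while the cirrhosis & eplerenone livers reach into the control range for all genes but Lcn2 and Apcs.

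Lcn2 (lipocalin 2, ENSRNOG00000013973, chromosome 3) was nearly silent in control livers, with 0.636 to 2.05 FPM, or 10 to 34 reads per library. In the cirrhosis livers it stood at 190, 47.1, 210, 70.2 and 11.8 FPM (replicates 1 to 5), and in the cirrhosis & eplerenone livers at 25.0, 2.503, 100.7, 8.01 and 20.7 FPM. Neither CCl4-treated group overlapped the controls, and the lowest rat of each was the one nearest to control, cirrhosis replicate 5 and cirrhosis & eplerenone replicate 2. The log2FC between cirrhosis and control was 6.35. Under eplerenone Lcn2 remained above control, higher in 5 of 5 livers than in any control. The log2FC was 4.60 (SE 1.06, FDR = 0.0215 by the quasi-likelihood test of edgeR, adjusted over all genes after Benjamini and Hochberg). Since Lcn2 was picked for its rise over these same 4 controls, this FDR is not an independent test. The call rested on few controls: it was lost when any 1 of the 4 controls or cirrhosis & eplerenone replicate 3 was left out (FDR 0.0508 to 0.0845, log2FC 3.45 to 4.92). Against cirrhosis, Lcn2 was 1.75 lower on the log2 scale in the eplerenone group (log2FC -1.75, 95% interval -3.47 to -0.03), and the difference did not pass the correction over all genes (edgeR FDR = 0.341, DESeq2 FDR = 0.275).

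Lcn2 is stored in neutrophil granules as well as made by hepatocytes, so neutrophil genes are given beside it. Of 14 neutrophil marker genes, 4 passed the filter on low counts, and S100a8 and S100a9, which encode the calprotectin subunits, rose in both CCl4-treated groups (cirrhosis & eplerenone against control: log2FC 4.17, FDR = 0.0235 and log2FC 3.35, FDR = 0.0430 by edgeR). Csf3r, the receptor for granulocyte colony stimulating factor, rose in cirrhosis (log2FC 1.84, edgeR FDR = 0.0404). Under eplerenone these calls rested on single rats: with each of the 14 rats left out in turn, S100a8 passed in 9 of 14 fits and S100a9 in 5, both being lost without any 1 control or cirrhosis & eplerenone replicate 5. In cirrhosis S100a8 passed in 14 of 14 such fits, S100a9 in 10 and Csf3r in 8. The summed level of all 14 ranged from 0.700 to 1.93 FPM in control, from 2.37 to 30.0 FPM in cirrhosis and from 1.94 to 32.5 FPM under eplerenone. The granule gene Ltf had 0 counts in 13 of 14 livers, and Fpr1, a neutrophil chemotaxis receptor, in all 14. Mpo, Elane, Prtn3, Camp, Np4 and RatNP-3b had 0 counts in all 4 controls but were counted in some CCl4-treated livers. These counts were low, at most 53 per library (Np4). Camp, the other gene past the filter, had the largest log2FC of the list in cirrhosis (5.95). It was called there by DESeq2 but not by edgeR. Rats did not rank alike in the markers and in Lcn2. Cirrhosis replicates 1 and 3, with the most Lcn2, had neutrophil sums of 9.43 and 9.33 FPM, whereas cirrhosis replicate 4 and cirrhosis & eplerenone replicate 5, with sums of 30.0 and 32.5 FPM, had 70.2 and 20.7 FPM of Lcn2. The part of neutrophils in the Lcn2 level was not tested.

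Lbp (lipopolysaccharide binding protein, ENSRNOG00000014532, chromosome 3) had 59.8 to 143 FPM in control. It had 525, 592, 646, 1018 and 267 FPM in the cirrhosis livers and 416, 141, 461, 269 and 350 FPM in the cirrhosis & eplerenone livers. All cirrhosis livers lay above all controls, with cirrhosis replicate 5 again the lowest, and under eplerenone only replicate 2 reached the control range. The log2FC between cirrhosis and control was 2.74. Lbp remained higher than control under eplerenone (log2FC 1.84, SE 0.40, edgeR FDR = 0.0159), a call that was lost without control replicate 2, 3 or 4 (FDR 0.0522 to 0.0625). It was lower than in cirrhosis by a log2FC of -0.90 (95% interval -1.66 to -0.13), which did not pass the correction (edgeR FDR = 0.316).

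A2m (alpha-2-macroglobulin, ENSRNOG00000028896, chromosome 4), a broad protease inhibitor, is among the most inducible acute phase proteins of the rat. Controls had 1.03, 8.44, 8.24 and 12.9 FPM (replicates 2 to 5), the cirrhosis livers 13.3, 43.9, 20.2, 148 and 23.1 FPM and the cirrhosis & eplerenone livers 7.87, 3.94, 73.4, 44.6 and 86.3 FPM. The cirrhosis range began just above the highest control, and cirrhosis replicate 4 was far above its group. Under eplerenone the rats split by label prefix, the 2 with prefix 15 within the control range and the 3 with prefix 20 above it. The log2FC was 2.70 between cirrhosis and control and 2.499 between cirrhosis & eplerenone and control (SE 0.94, edgeR FDR = 0.139). Between the CCl4-treated groups it was -0.20 with a 95% interval of -1.91 to 1.51, and its sign turned without cirrhosis replicate 4 (0.79) or without cirrhosis & eplerenone replicate 1 (0.07) or 2 (0.09).

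Orm1 (orosomucoid 1, ENSRNOG00000007886, chromosome 5), a plasma protein that binds drugs and steroids, had 644, 579, 783 and 597 FPM in the controls. The cirrhosis livers had 2659, 1240, 2741, 788 and 1048 FPM, so that replicates 1 and 3, which also had the most Lcn2, stood apart. The cirrhosis & eplerenone livers had 1156, 826, 766, 847 and 824 FPM, a narrow range that overlapped the highest control and the lowest cirrhosis liver. The log2FC was 1.38 between cirrhosis and control. Under eplerenone it was 0.44 against control (95% interval -0.27 to 1.15, edgeR FDR = 0.512) and -0.94 against cirrhosis (95% interval -1.61 to -0.27, FDR = 0.312), so that neither passed the correction.

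Of the 3 genes whose products bind haemoglobin, haem and copper, Hp was the only one that separated cirrhosis from control livers. Hp (haptoglobin, ENSRNOG00000014964, chromosome 19), which binds free haemoglobin, had 13011 to 15963 FPM in control. It had 29689, 18669, 32066, 16149 and 17162 FPM in the cirrhosis livers and 18730, 13675, 13692, 16395 and 19259 FPM in the cirrhosis & eplerenone livers. Cirrhosis replicates 1 and 3 were again the highest. The log2FC of Hp was 0.64 between cirrhosis and control, -0.48 between cirrhosis & eplerenone and cirrhosis (edgeR FDR = 0.369) and 0.16 between cirrhosis & eplerenone and control (FDR = 0.804). Hpx (hemopexin, ENSRNOG00000018257, chromosome 1), the haem carrier, had 8975 ± 1841 FPM in control (SD, n = 4), 10853 ± 1075 in cirrhosis (n = 5) and 8400 ± 1088 under eplerenone (n = 5). Cp (ceruloplasmin, ENSRNOG00000011913, chromosome 2), a copper-carrying ferroxidase, had 1835 ± 185 FPM in control, 2125 ± 335 in cirrhosis and 2327 ± 302 under eplerenone. For both genes the 3 groups overlapped. The 95% interval of the log2FC between cirrhosis & eplerenone and cirrhosis ran from -0.80 to 0.06 for Hpx and from -0.26 to 0.52 for Cp.

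Crp (C-reactive protein, ENSRNOG00000000053, chromosome 13) had 2861, 3678, 4275 and 5615 FPM in the controls. It had 233, 1560, 218, 898 and 2732 FPM in the cirrhosis livers and 3683, 6030, 982, 2750 and 1235 FPM in the cirrhosis & eplerenone livers. All cirrhosis livers lay below all controls, but cirrhosis replicate 5 only just. Under eplerenone, replicates 1 and 2 were within or above the control range and replicates 3, 4 and 5 were below it, 3 and 5 within the cirrhosis range. The log2FC was -1.86 between cirrhosis and control. It was 1.38 between cirrhosis & eplerenone and cirrhosis (95% interval 0.02 to 2.74), which did not pass the correction (edgeR FDR = 0.341). Against control the eplerenone group differed by -0.48 with an interval of -1.89 to 0.93, which leaves room for a difference in either direction.

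Apcs (serum amyloid P component, ENSRNOG00000009086, chromosome 13), the second pentraxin, varied less from rat to rat than Crp, with a coefficient of variation of 4.33% to 15.7% within groups against 28.2% to 93.4% for Crp. Controls had 1041 ± 45.1 FPM (SD, n = 4), cirrhosis livers 536 ± 35.9 (n = 5) and cirrhosis & eplerenone livers 615 ± 96.4 (n = 5). Every CCl4-treated liver lay below every control, the highest of them being cirrhosis & eplerenone replicate 2 with 784 FPM against a lowest control of 995 FPM. The log2FC was -0.96 between cirrhosis and control. Apcs fell by 0.76 on the log2 scale in cirrhosis & eplerenone against control (SE 0.17, FDR = 0.0163 by edgeR), lower in 5 of 5 livers. The call was lost without control replicate 5 (edgeR FDR = 0.0537). Between the CCl4-treated groups the log2FC was 0.20 (95% interval -0.14 to 0.53, FDR = 0.527). Cirrhosis replicate 5, which had the lowest Lcn2 and the highest Crp of its group, had 585.1 FPM of Apcs, well below the lowest control.

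The question behind the eplerenone group was whether MR blockade alters what CCl4 does to the liver. Between cirrhosis & eplerenone and cirrhosis, none of the 9 genes passed an FDR of 0.05 by edgeR, where 0.0139% of all genes (2 genes) did, and none by DESeq2, where 0.513% did. An unadjusted p below 0.05 was found by edgeR for 4 of the 9 (Lcn2, Lbp and Orm1 lower, Crp higher) and for 14.4% of all genes. No gene of the 9 separated the groups without overlap (0.964% of all genes). The median log2FC of the 9 was -0.37, and that of all genes 0.01. Against control, 3 of the 9 genes passed (Lcn2 and Lbp higher, Apcs lower), where 5.22% of all genes did (4.33% higher and 0.895% lower) and DESeq2 also called 3, against 10.6%. The ranges did not overlap for Lcn2, which was higher, and Apcs, which was lower (10.9% of all genes, 6.42% higher and 4.46% lower). The comparisons share samples: each of them shares a group with the difference on which the genes were picked. These comparisons are therefore not independent tests of the 9 genes.

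The difference between the CCl4-treated groups was unlike in rats of the 2 label prefixes. Among rats with prefix 15 (3 cirrhosis and 2 cirrhosis & eplerenone livers), the mean difference in log2 FPM was -3.93 for Lcn2, 3.45 for Crp, -2.01 for A2m, -1.27 for Lbp and -1.09 for Orm1. Among rats with prefix 20 (2 and 3 livers), it was -0.17 for Lcn2, -0.07 for Crp, 0.17 for A2m, -0.57 for Lbp and -0.16 for Orm1. Cirrhosis replicate 5 and cirrhosis & eplerenone replicate 3, both with prefix 20, lay on the side of the other group in Lcn2 and Crp. With prefix as a term in the model the log2FC was -1.67 for Lcn2 (edgeR FDR = 0.576) and 1.36 for Crp (FDR = 0.541). With those 2 rats left out, a choice made because of their position among the samples, 3 of the 9 genes passed, Lcn2 (log2FC -3.22, FDR = 0.0190), Crp (2.22, FDR = 0.0406) and Lbp (-1.26, FDR = 0.0414), but the share of all genes called rose too, to 9.16%. Since these rats lay on the side of the other group in Lcn2 and Crp, leaving them out widened those differences. The FDRs without them are therefore not a test. Whether the difference depends on the prefix was not tested.

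**Figure D2:**
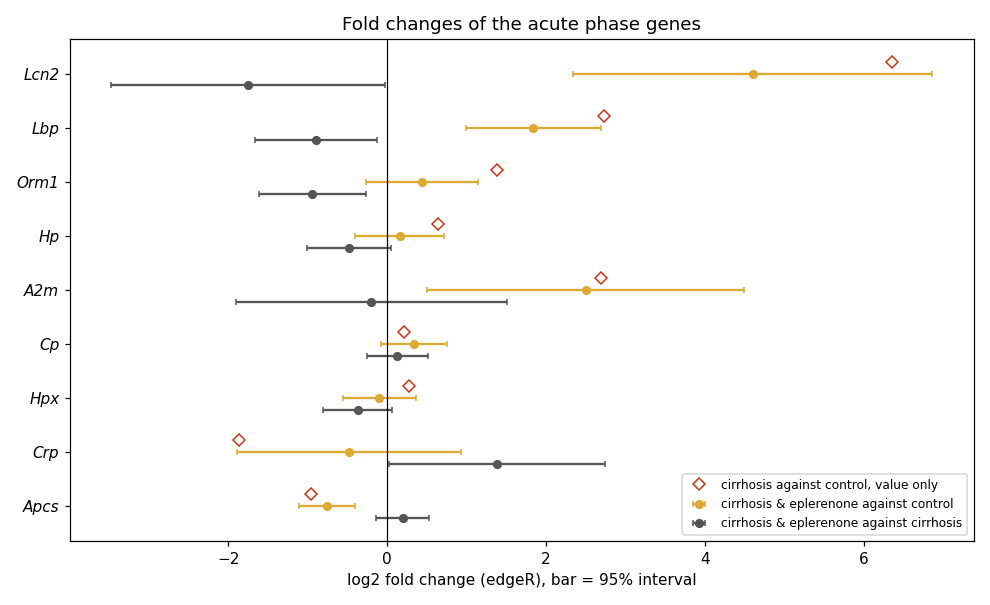
Log2FC of the 9 acute phase genes by edgeR. Open diamonds are cirrhosis against control, shown as values without an interval since the genes were picked on them, and filled circles with 95% interval are cirrhosis & eplerenone against control and against cirrhosis. Lcn2 lies at 6.35 and 4.60 against control, and its interval against cirrhosis runs from -3.47 to -0.03.

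Levels varied from rat to rat within the CCl4-treated groups, and Lcn2 and Crp varied in opposite directions. With the group means subtracted, log2 FPM of Crp was correlated with that of Lcn2 over the 10 CCl4-treated rats with Pearson's r = -0.87 (p = 0.00153, adjusted 0.0122 over the 8 genes compared with Lcn2) and Spearman's rho = -0.83 (p = 0.00563, adjusted 0.045), by an exact two-sided permutation test within groups. Of the 14416 other genes tested, 1.96% had an r with Lcn2 of this size or more negative. Lbp rose with Lcn2 at r = 0.78 (exact permutation p = 0.0168, adjusted 0.0672) and rho = 0.71 (p = 0.0416, adjusted 0.166), a size reached by 6.85% of genes, which missed the correction. For the other 6 genes r ranged from -0.60 (Apcs) to 0.56 (Hpx), with adjusted exact permutation p-values from 0.215 to 0.422 and rho from -0.31 (Apcs) to 0.56 (Hp), with adjusted p-values from 0.263 to 0.736. After leaving out the 2 rats farthest from the median in Lcn2 (cirrhosis replicate 3 and cirrhosis & eplerenone replicate 2), the r of Crp was -0.82 with an adjusted exact permutation p of 0.278, so passing the threshold rested on those rats. The adjusted p was also 0.05 to 0.0806 without cirrhosis replicate 1, 3 or 5 or cirrhosis & eplerenone replicate 2. Each prefix holds 5 CCl4-treated rats, too few for a correlation of its own, and with prefix means also removed r was -0.87 for Crp (adjusted permutation p = 0.0128) and 0.80 for Lbp (0.0442). Here the permutation ran within groups but across prefixes, so these p-values are approximate and not exact. The 3 CCl4-treated rats nearest to control on the first principal component, cirrhosis replicate 5 and cirrhosis & eplerenone replicates 2 and 4, had the 3 lowest levels of Lcn2 and were among the 4 highest in Crp.

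**Figure D3:**
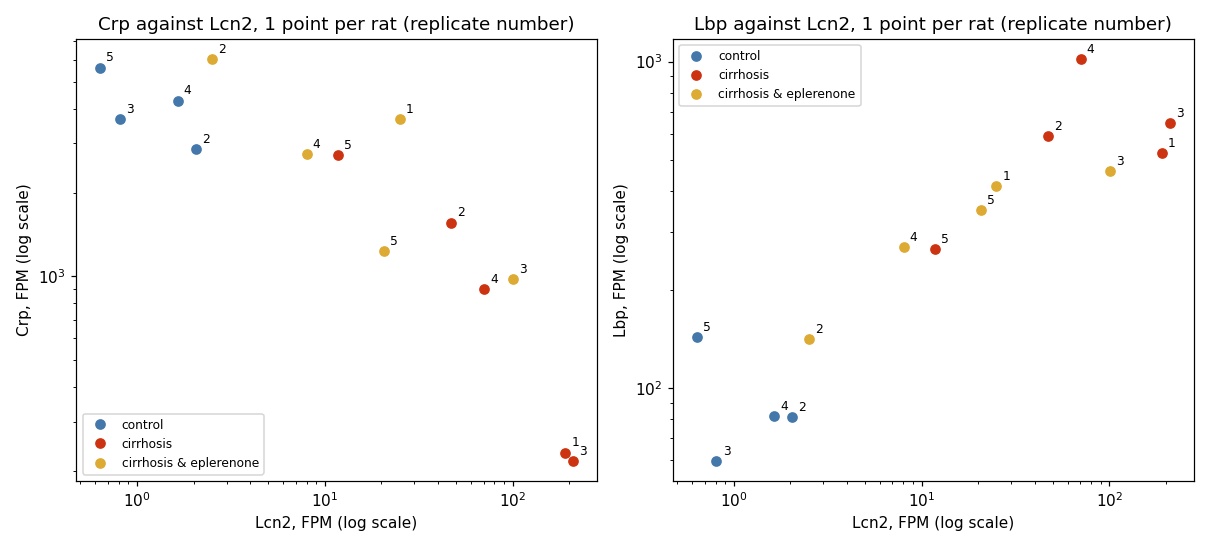
Crp (left) and Lbp (right) against Lcn2, both in FPM on log axes, 1 point per rat with its replicate number, coloured by group. Among the CCl4-treated rats Crp is lowest where Lcn2 is highest (cirrhosis 1 and 3), and cirrhosis & eplerenone 2 lies beside the controls in both panels.

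The genes most like Lcn2 over the 10 CCl4-treated rats, among 12284 protein coding genes with a mean of at least 1 FPM, were Kcnn4 (Pearson's r of log2 FPM 0.98), a calcium-activated potassium channel, Ifitm2 (0.98), an interferon-induced membrane protein, Gpx3 (0.98), the secreted glutathione peroxidase, Mcm3 (0.97), a subunit of the replicative helicase, and Tdrp (0.97). Gpx3 had 12.0 ± 1.05 FPM in control (SD, n = 4), 148 ± 89.8 in cirrhosis (n = 5) and 69.7 ± 48.7 under eplerenone (n = 5). Those most like Crp were Arcn1, a coatomer subunit, Desi2, Nt5e, the ecto-5′-nucleotidase, Cables2 and Ildr2, each with r = 0.99. Nt5e had 66.6 ± 14.02 FPM in control, 28.6 ± 18.6 in cirrhosis and 49.3 ± 21.1 under eplerenone. These r include the difference between the groups and are a description.

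Other genes of the acute phase were not part of the group picked, although they too were listed with earlier results known. Calls in the lists that follow depended on single rats: with each of the 14 rats left out in turn, the share of all genes called in cirrhosis against control ranged from 9.26% (without control replicate 5) to 32.1% (without cirrhosis replicate 5). Of 17 further positive acute phase genes tested, 2 rose and 3 fell in cirrhosis against control by edgeR, where 20.2% of all genes were called (13.4% higher and 6.71% lower). With 1 rat left out the count ranged from 0 (without control replicate 3 or 5) to 7. The metallothioneins Mt2A and Mt1, which bind zinc and copper, rose (log2FC 3.10, FDR = 0.0183 and 2.58, FDR = 0.0198), but both were as low as control in cirrhosis replicate 5, at 53.3 FPM for Mt2A and 25.3 FPM for Mt1. Cd14, the receptor to which Lbp delivers lipopolysaccharide, fell (log2FC -1.26, edgeR FDR = 0.0380), from 76.3 ± 11.9 FPM in control to 31.8 ± 19.3 in cirrhosis. Fga, the fibrinogen alpha chain, fell (log2FC -0.79, edgeR FDR = 0.0326), and Fgb and Fgg, the other chains, had log2FC of -0.52 (FDR = 0.0894) and -0.67 (FDR = 0.0519). Cd14 passed in 6 of the 14 fits with 1 rat left out and Fga in 8, each being lost without control replicate 3, 4 or 5 or cirrhosis replicate 1, 3 or 4. The last of the 3 that fell was Steap4, a metalloreductase (log2FC -0.69, edgeR FDR = 0.0481). None of the 17 passed in cirrhosis & eplerenone against control by edgeR (4 by DESeq2, and 8 with an unadjusted p below 0.05). Of all genes, 5.22% passed in this comparison by edgeR and 10.6% by DESeq2. Of 10 negative acute phase genes tested, 2 fell in cirrhosis, Serpina6, the corticosteroid carrier (edgeR log2FC -1.04, FDR = 0.00807), and Fetub (log2FC -0.85, FDR = 0.0380), against 6.71% of all genes. Serpina6 passed in 14 of 14 fits with 1 rat left out, but Fetub in 6, being lost without any 1 control or any 1 of cirrhosis replicates 1 to 4, and the count ranged from 1 to 5, the highest without cirrhosis replicate 5. Serpina6 also fell in cirrhosis & eplerenone against control (log2FC -1.19, edgeR FDR = 0.0104).

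Of 29 genes of cytokines, receptors and transcription factors that drive the response, 6 rose and 5 fell in cirrhosis against control by edgeR, where 13.4% of all genes rose and 6.71% fell. With 1 rat left out the count of 11 ranged from 4 (without control replicate 5) to 13. Those that rose were Osm, an interleukin-6 family cytokine (log2FC 3.09, FDR = 0.00455), the NF-kappaB genes Relb (2.89, FDR = 0.00128), Nfkb2 (1.74, FDR = 0.00116) and Nfkbia (1.06, FDR = 0.0178), the C/EBP factor Cebpd (1.35, FDR = 0.0427) and the cytokine Il1b (0.95, FDR = 0.0490). Osm was counted in few reads, with 0.122 ± 0.130 FPM in control (0 counts in 1 library), 1.09 ± 0.203 in cirrhosis and 0.717 ± 0.134 under eplerenone. Relb had 2.55 ± 0.359 FPM in control, 19.0 ± 6.94 in cirrhosis and 8.70 ± 4.68 under eplerenone. Those that fell were Il1r1, the signalling interleukin-1 receptor (log2FC -2.44, edgeR FDR = 0.0295), its partner Il1rap (-1.25, FDR = 0.00794) and the ligand Il1a (-1.89, FDR = 0.0280), together with the kinase Jak1 (-0.74, FDR = 0.0344) and the hepatocyte transcription factor Hnf4a (-0.81, FDR = 0.0290). Il1r1 and Il1a each passed in 8 of 14 fits with 1 rat left out, being lost without control replicate 2, 4 or 5 or cirrhosis replicate 1, 3 or 4. Il6st, the shared receptor subunit of the interleukin-6 family, had a log2FC of -1.43 (FDR = 0.147) and Socs3, a feedback target of STAT3, -1.67 (FDR = 0.0734), neither past the threshold, and Stat3 itself 0.46 (FDR = 0.252). Il6 was below the filter, with 0 counts in all 4 controls, in 2 cirrhosis and in 3 cirrhosis & eplerenone livers and at most 0.410 FPM, where 3 counts stood for 0.121 to 0.191 FPM. Osm, Relb and Nfkb2 rose in cirrhosis & eplerenone against control too, where 4.33% of all genes rose. The count of 3 ranged from 0 to 5 with 1 rat left out. It was 0 without control replicate 3, 4 or 5 or cirrhosis & eplerenone replicate 3. Between cirrhosis & eplerenone and cirrhosis none of the 29 passed by edgeR, 1 passed by DESeq2 (Il1r1, log2FC 2.89, FDR = 0.0274), and 11 had an unadjusted p below 0.05. Of all genes, 0.0139% passed by edgeR, 0.513% passed by DESeq2 and 14.4% had an unadjusted p below 0.05 by edgeR.

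**Figure D4:**
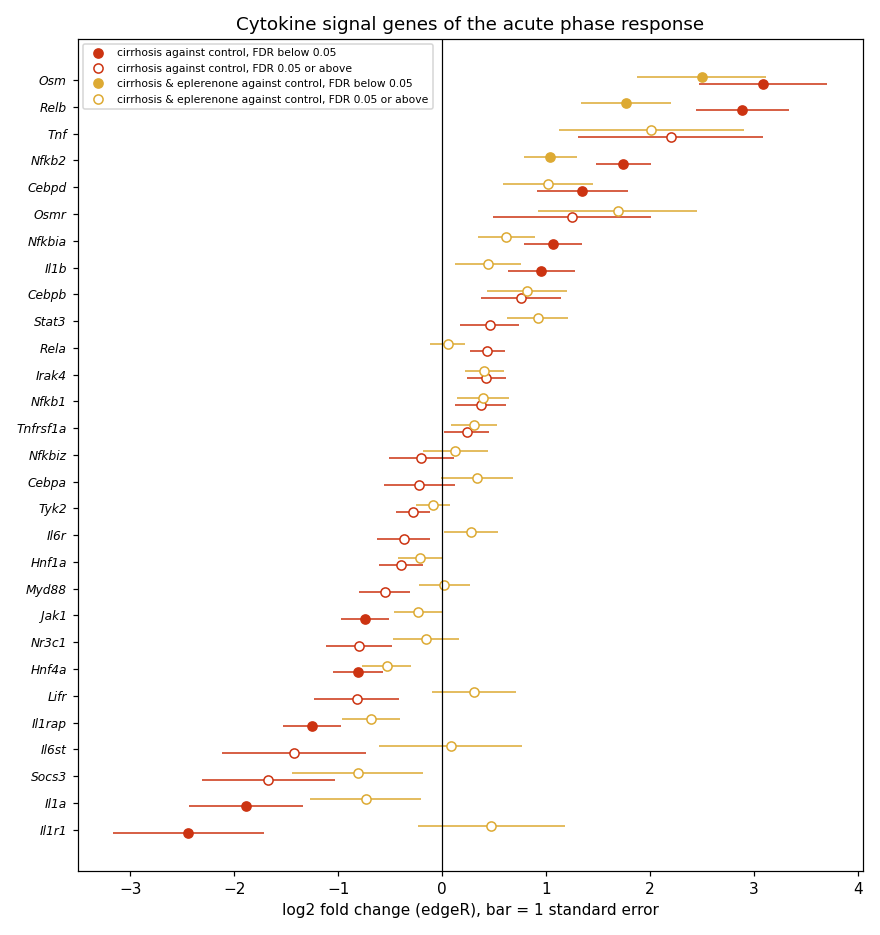
Log2FC with 1 standard error of 29 cytokine signal genes against control, for cirrhosis and for cirrhosis & eplerenone, ordered by the value in cirrhosis. Filled circles have an edgeR FDR below 0.05. Osm (3.09) and Relb (2.89) lie at the top and Il1r1 (-2.44) at the bottom.

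Of 13 receptors and clearance genes for these proteins tested, 2 rose and 3 fell in cirrhosis by edgeR, where 20.2% of all genes were called. The count was 3 without control replicate 3, 4 or 5 and at most 5 with any other rat left out. Heph, a ceruloplasmin-like ferroxidase (log2FC 3.29, FDR = 0.00182), and Tlr2 (1.82, FDR = 0.0143) rose. Fcgr2b, an inhibitory Fc receptor of the family that binds pentraxins (-1.52, FDR = 0.00194), and Cd163, the macrophage receptor for haptoglobin with haemoglobin (-1.22, FDR = 0.0163), fell, as did Lrp1, the receptor that clears A2m bound to proteases (-0.92, FDR = 0.0424). Cd163 had 23.4 ± 4.57 FPM in control, 10.1 ± 4.41 in cirrhosis and 21.1 ± 6.10 under eplerenone. None of the 13 passed between the CCl4-treated groups by edgeR or DESeq2, and 3 had an unadjusted p below 0.05, as did 14.4% of all genes.

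Markers of other cells moved with CCl4, read against the same 20.2% of all genes. All 6 cholangiocyte markers tested rose in cirrhosis by edgeR, among them Sox9 (log2FC 4.18, FDR = 5.23e-04). The count ranged from 4 to 6 with 1 rat left out, and for Krt19 and Spp1 the cirrhosis livers overlapped the controls. The summed level of the cholangiocyte markers was 14.4 to 23.6 FPM in control, 46.5 to 142 in cirrhosis and 46.3 to 98.1 under eplerenone. Of 7 stellate cell markers, 5 rose, Col1a1 (log2FC 3.36, FDR = 0.00125), Acta2, Tagln, Des and Col3a1, with sums of 144 to 242, 260 to 538 and 390 to 532 FPM. Lrat, on the same list and not called, went the other way, with 16.9 ± 3.35 FPM in control, 7.93 ± 5.43 in cirrhosis and 24.4 ± 13.7 under eplerenone. Col3a1 was the largest part of the sums, with means of 125, 216 and 293 FPM, so they mostly show its level. The stellate count was 3 without control replicate 2 or 5. None of 7 macrophage markers passed by edgeR (2 by DESeq2, 3 by edgeR without cirrhosis replicate 5, and 3 with an unadjusted p below 0.05), with overlapping sums of 219 to 391, 88.6 to 384 and 171 to 466 FPM. The sums hide opposite directions between control and cirrhosis. The means of 4 markers were lower (Clec4f, Marco, Cd5l and Vsig4, the last from 21.3 ± 4.80 to 6.91 ± 6.74 FPM). Those of 3 were higher (Csf1r, Adgre1 and Cd68, the last from 14.6 ± 3.32 to 24.3 ± 6.78 FPM). Of 10 hepatocyte markers, 3 fell, Hal (log2FC -1.60, FDR = 0.0344), F9 and Asgr2 (each called in 7 or 8 of 14 fits with 1 rat left out, the count being 0 without control replicate 3, 4 or 5 or cirrhosis replicate 3 or 4), with sums of 13214 to 16362, 6280 to 13148 and 5994 to 18263 FPM. Rats ranked in part alike in the cholangiocyte sum and in Lcn2. The 3 CCl4-treated rats with the least Lcn2 had the 3 lowest sums (46.3 FPM in cirrhosis & eplerenone replicate 2, 46.5 in cirrhosis replicate 5 and 47.9 in cirrhosis & eplerenone replicate 4). Cirrhosis replicates 1 and 3, with the most Lcn2, both had 115 FPM, and replicate 2 had the highest sum, 142 FPM, beside 47.1 FPM of Lcn2. The part of cell composition in the levels of the acute phase genes was not tested.

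**Figure D5:**
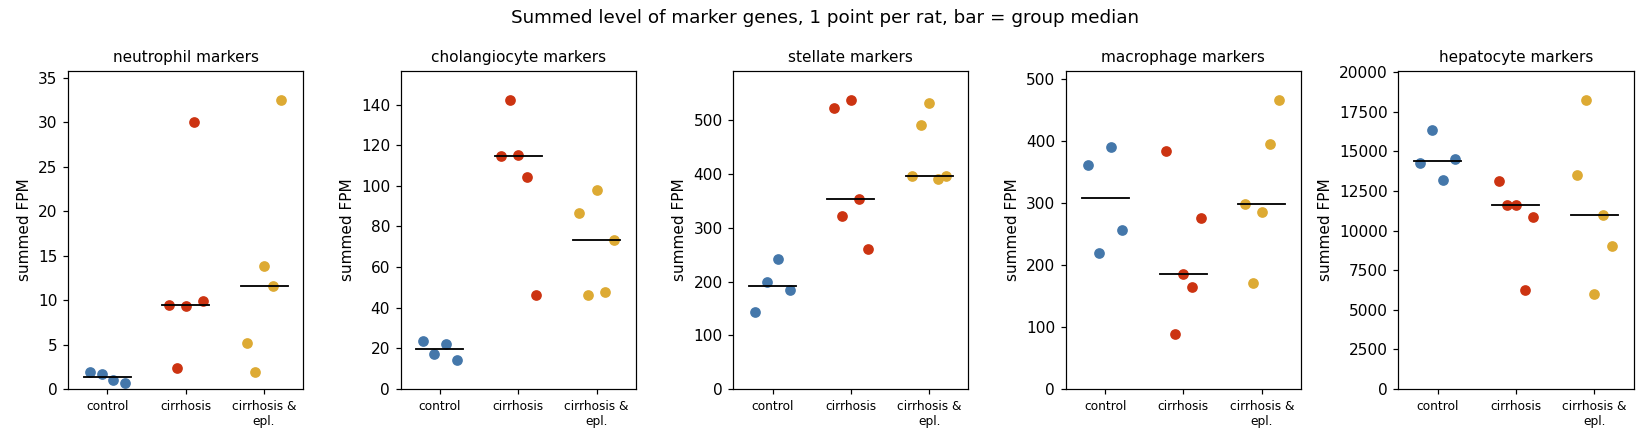
Summed FPM of the marker genes of 5 cell types, 1 point per rat with a bar at the group median. The neutrophil sum is at most 1.93 FPM in control and reaches 30.0 and 32.5 FPM in the CCl4-treated groups, and the hepatocyte sum is lowest in cirrhosis 4 and cirrhosis & eplerenone 3.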

How the data were processed

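The authors isolated RNA from liver (RNA integrity number above 7), selected poly(A) RNA, sequenced both ends (150 bp), mapped the reads to rn6 with HISAT2 2.1.0 and counted them over exons with featureCounts 2.0.0, with reads mapping to several places counted at each, so genes with near copies such as Mt1 and Mt2A are uncertain. Whether strand was used is not given in the sources used here. The authors deposited raw counts per gene (Ensembl archive 101) without normalization. The label of control replicate 1 matches no column.

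Samples were grouped by the titles. Counts of 14 samples were fitted in 1 model over the 3 groups with edgeR 4.0.16 (quasi-likelihood test, TMM normalisation, filterByExpr with smallest count 10) in R 4.3.3. TMM factors were 0.847 to 0.877 in control and 0.925 to 1.40 in the CCl4-treated rats. The adjustment for multiple tests (Benjamini-Hochberg) ran over 14417 genes and an FDR below 0.05 was called. Standard errors are the log2FC over the square root of F, and intervals use edgeR's degrees of freedom. Values per rat are FPM over TMM library sizes, on the log2 scale with a prior count of 2. DESeq2 1.42.0 was the second tool. Replicates are different rats by their labels. The lowest chi-square per degree of freedom between replicates of the same group was 25.0, so no library was a repeat of another in its group. Libraries of different groups were not compared in this way.

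The members and lists were chosen with earlier results of these data known. Named genes are the 10 members, per list at most 4 genes with the largest change among those called against control with a mean of at least 1 FPM in a group, defining markers at 0, and the 5 genes most like Lcn2 and Crp. Steap4, Lrp1, Col3a1, Jak1, Hnf4a, Il1rap, Nfkb2, Nfkbia, Cebpd, Il1b, Il6, Il6st, Socs3, Stat3, Fgb and Fgg were named after their values were seen. So were Krt19, Mpo, Elane, Prtn3, Camp, Np4 and RatNP-3b. Saa4, Kng2, Kng1l1, Kng2l1, Mbl2, Ahsg, Ly96, Timd4 and Col1a2 were listed and had no row. Cfb, Bpi and Il22ra1 were below the filter. Alternatives changed the normalisation, the filter, the tool, the samples, the replicate block and the label prefix. The steps were tested on simulated data. The replicate numbers of the groups did not pair the rats.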

Additional observations from a re-analysis of the deposited data

Results flagged for a closer look

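In each group of 4 or 5 rats, the gap between the extreme rat and its neighbour was compared with the group's range by Dixon's critical value. Of 27 gene and group combinations, 4 were past it. The rate of about 1 in 20 flagged by chance holds for normally distributed values. FPM were used here without a log, and levels such as those of Lcn2 and A2m were skewed. The count is therefore not read against that rate, and gaps on the log2 scale were not tested. Lcn2 in cirrhosis & eplerenone replicate 3 (100.7 FPM, the next rat having 25.0 FPM) and Apcs in cirrhosis & eplerenone replicate 2 (784.3 FPM, next 591 FPM) were set apart from their group. Orm1 in cirrhosis & eplerenone replicate 1 (1156 FPM, next 847 FPM) and A2m in cirrhosis replicate 4 (147.8 FPM, next 43.9 FPM) were too. Replicates 2 and 3 of the eplerenone group were also the ends of that group on the first principal component.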

How the results depend on the processing

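Among the 9 acute phase genes, 4 were called between cirrhosis and control, where 20.2% of all genes were called. Between cirrhosis & eplerenone and cirrhosis 0 were called (0.0139% of all genes). Between cirrhosis & eplerenone and control 3 were called (5.22% of all genes). With cirrhosis replicate 5 and cirrhosis & eplerenone replicate 3 both left out, 7 and 3 were called in the first pair of comparisons, where 34.2% and 9.16% of all genes were called, and DESeq2 called 7 in the first, with 27.8% of all genes. Those rats were left out because of their position, so the counts without them are not a test. With each rat left out in turn the counts ranged from 4 to 6, from 0 to 0 and from 1 to 3. The shares of all genes called then ranged from 9.26% to 32.1%, from 0% to 0.181% and from 1.5% to 8.88%. Total counts in place of TMM moved the median log2FC of all genes by 0.29 (cirrhosis against control) and 0.32 (cirrhosis & eplerenone against control). Under this scaling Apcs against control missed the threshold under eplerenone (log2FC -0.45, FDR = 0.0933), and Hpx turned to 0.23. With each rat left out, Hpx under eplerenone against control ranged from -0.19 to 0.00039, and A2m between the CCl4-treated groups ranged from -0.61 to 0.79. The cause of these shifts was not tested.

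The replicate numbers did not pair the rats: deviations of same-numbered samples from their group means correlated at -0.33 to 0.19, over 0.1 in 3 of 13 pairs. With the replicate number as a block, 0 of the 9 genes were called in cirrhosis & eplerenone against control (Lcn2 FDR = 0.0719, Lbp 0.0727, Apcs 0.0847 by edgeR). The share of all genes called fell too, from 5.22% to 1.87%.

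The correlation of Lcn2 with Crp kept its sign in all alternatives run, and was -0.92 to -0.81 with 1 rat left out and -0.82 (adjusted exact permutation p = 0.278) without 2. With 1 rat left out, r with Lcn2 ranged from 0.34 to 0.65 for Orm1, 0.39 to 0.82 for Hp, -0.043 to 0.46 for A2m, 0.66 to 0.90 for Lbp, 0.07 to 0.57 for Cp, -0.67 to -0.25 for Apcs and 0.31 to 0.83 for Hpx. With prefix means removed Lbp reached 0.80. Under total counts r was 0.84 for Hp, 0.79 for Hpx, 0.81 for Lbp and 0.65 for Orm1, all with adjusted exact permutation p-values below 0.05, and 0.13 for Apcs. Depth limits Lcn2 in control, counted at 10 to 34 reads per library.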
